A study of Schizothorax plagiostomus with 18 samples.

Results

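Ovaries taken after spawning were compared with ovaries taken during spawning in the snow trout *Schizothorax plagiostomus*, a cold-water cyprinid of Himalayan rivers. Gonad RNA of the series was sequenced in 18 libraries, with ovaries and testes at 3 maturational stages and 3 libraries per gonad and stage. The comparison used 6 of these libraries, chosen by the stage and tissue in their labels: post-spawning ovaries 1 to 3 and spawning ovaries 1 to 3. The 3 pre-spawning ovaries entered the scaling and the estimate of spread, and with the 3 pre-spawning testes they defined groups of features by gonad. The 9 testes gave levels for reference and a rule for features that vary among testes. They entered no fit except an alternative fit of all 18 libraries. All 6 libraries were of female gonads with no treatment, strain or age given in the labels, and each stage had 1 library from each of 3 seasons. The season number equals the replicate number, so each season gave 1 library per group.

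The ovary of a seasonally spawning fish is rebuilt every year. Follicles enlarge as the oocyte takes up yolk proteins made in the liver, and the mature eggs are released at spawning. What remains is a mixture of emptied follicles, unspawned eggs that are broken down, and small oocytes that form the next cohort, together with somatic and blood cells. In bulk RNA of such a mixture, fewer cells of a type and less RNA per cell cannot be told apart.

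Transcripts were counted per feature, which is either a single assembled transcript or a cluster of several, 135031 features in all from 251830 transcripts. The files pair no feature with a gene name, so features are described by their identifiers, their levels, their distribution over gonads and the transcript stem they belong to, and no function is assigned. The markers of ovarian cell types could not be looked up for that reason. Levels are given as counts per 1000000 counts of the library (CPM), without correction for transcript length. The 6 libraries held 14604277 to 47801904 counts, with post-spawning ovary 1 the shallowest. A floor of 3 counts corresponded to 0.205 CPM in that library and to 0.0628 CPM in the deepest, for counting error only.

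Post-spawning ovary 1 stood apart from the other post-spawning ovaries before any feature was tested. Across 42501 features, which are not independent replicates, the Spearman correlation between post-spawning ovaries 2 and 3 was 0.953, the highest of all pairs of ovaries. Post-spawning ovary 1 correlated with them at 0.787 and 0.798, and more closely with spawning ovary 3 (0.891) and spawning ovary 1 (0.853). With spawning ovary 2 it correlated no more closely (0.795) than with its own group. Among spawning ovaries the correlations were 0.859 to 0.896. Post-spawning ovary 3 correlated with pre-spawning ovaries at 0.887 to 0.900 and with spawning ovaries at 0.866 to 0.895. The descriptions carry the code X1_3A for post-spawning ovary 1 and the codes X4IIIA and X4_IIIA_2 for post-spawning ovaries 2 and 3. The labels do not say what these codes mean, nor whether any libraries of a group came from separate fish. Every p-value below therefore measures the spread between these libraries, which may be partly technical. Without post-spawning ovary 1 the group rests on 2 libraries with related codes. Among the 9 ovaries post-spawning ovary 1 also had the lowest sample weight in limma voom (0.357). Counts of libraries within a group differed by more than counting noise, with a chi-square per degree of freedom of at least 91.9, so no library was a repeat deposit of another of its group and each was counted once. That check does not show whether they came from separate fish.

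**Figure D1:**
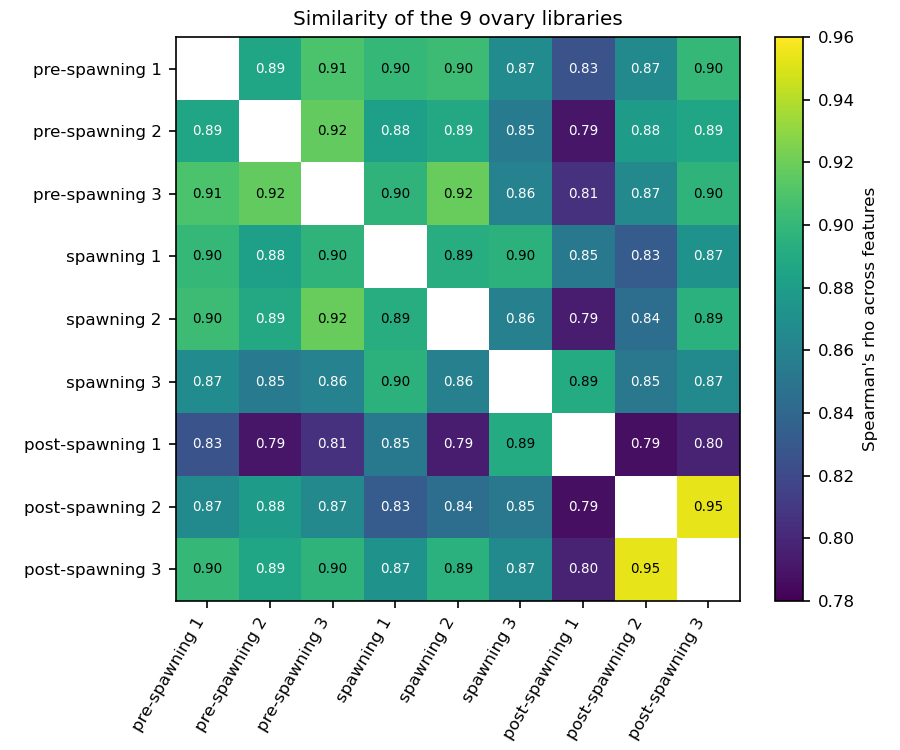
Spearman correlation across 42501 features between each pair of the 9 ovary libraries, with colour and printed value giving the coefficient. Post-spawning ovaries 2 and 3 form the brightest pair at 0.95, and the row of post-spawning ovary 1 is dark against them and lighter against spawning ovary 3.

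No feature passed the test when all libraries were used. With edgeR's quasi-likelihood F-test on the 9 ovaries, which adjusts p over all features by Benjamini and Hochberg and calls those under 0.05, 0 of 42501 features were called (0.0%). The smallest adjusted p was 0.0891. At an unadjusted p under 0.05, 1735 features were higher after spawning (4.08%) and 1300 were lower (3.06%). Other tools on the same libraries gave from 0 calls (limma voom with sample weights, 5418 at an unadjusted p under 0.05) to 302 higher and 138 lower (DESeq2, 0.711% and 0.325%, together 1.04%). The biological coefficient of variation, the relative spread between libraries of a group, was 64.3%. Without post-spawning ovary 1 it was 58.2%, and edgeR called 29 features higher (0.0648%) and 12 lower (0.0268%) of 44731, together 0.0917%. At an unadjusted p under 0.05 that fit had 7.66% of features higher and 7.38% lower, together 15.0%. With the season as a replicate block this became 40 higher and 4 lower, of which 11 and 3 were among the 29 and 12. Of the 29, 9 did not pass the low-count filter in the 9 ovaries and were tested only without post-spawning ovary 1.

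Every post-spawning library lay above every spawning library in 1545 tested features (3.64%), and every one lay below in 2123 (5.0%). Of these, 267 higher and 160 lower features also reached a mean of 10 CPM in the higher group and a log2 fold change of 1 in either direction. The first 8 of each direction by p are described next. None of these 16 was called in the fit of all 9 ovaries, where their edgeR adjusted p ranged from 0.0891 to 0.556. DESeq2 called 7 of the 8 higher and all 8 lower, and gave cluster41017 no p.

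The smallest p in the fit of all 9 ovaries belonged to the single transcript cluster30847, which was higher in all 3 post-spawning ovaries. Its level was 0.283, 0.733 and 0.272 CPM in spawning ovaries 1 to 3 and 12.9, 24.3 and 19.3 CPM in post-spawning ovaries 1 to 3. The groups were far apart, and the pre-spawning ovaries at 0.475 to 1.32 CPM lay near the spawning ones. The log2 fold change was 5.70 (SE 0.64), with an edgeR adjusted p of 0.0891 in the 9 ovaries and 0.0165 without post-spawning ovary 1. Testes held 6.36 to 86.2 CPM of it.

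A similar separation was seen for cluster57223, also a single transcript. Spawning ovaries held 0.162, 0.440 and 0.188 CPM of it, and post-spawning ovaries held 6.71, 25.7 and 19.3 CPM. Post-spawning ovary 1 was the lowest of its group but far above the spawning libraries (log2 fold change 6.28 ± 0.76 SE, adjusted p = 0.0891 by edgeR, and 0.0165 without post-spawning ovary 1). In cluster33129 the spawning ovaries together held 1 count and the post-spawning ovaries 2584 counts, at 88.2, 14.2 and 20.6 CPM. Here post-spawning ovary 1 was the highest. The ratio of pooled levels was 2800, with an exact 95% counting interval of 502 to 110628 for counting error only (edgeR adjusted p = 0.0891, and 0.0167 without post-spawning ovary 1). Its stem has transcripts in 75 features, and it leads a feature where it holds the most transcripts. Summed over the features that the stem leads, the log2 fold change was 0.48, and -0.34 without post-spawning ovary 1. Another member of the stem, cluster10297, had the same order, with no count in the spawning and pre-spawning ovaries and 5.96, 2.80 and 8.01 CPM in the post-spawning ones. Without post-spawning ovary 1, cluster43578 of this stem was called higher (edgeR adjusted p = 0.0339). Its members cluster41747 and cluster42762 were called lower (edgeR adjusted p = 0.0480 and 0.0366). These lower members had no count in post-spawning ovaries 2 and 3 but 16.7 and 10.5 CPM in ovary 1. Fitted with the newer quasi-likelihood method of edgeR, cluster30847, cluster57223 and cluster33129 were called, as was cluster27313, described below (adjusted p = 0.0321 each).

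Among the other 5, 3 had very unequal post-spawning libraries. For cluster41017 post-spawning ovary 1 held 28.2 CPM against 1.77 and 1.99 in the other post-spawning ovaries and 0.0366 to 0.121 in the spawning ones. For cluster2235 it held 49.2 CPM against 2.31 and 1.16, with 0.0628 to 0.220 in spawning ovaries. In cluster52688 the order was the opposite, with 0.342 CPM in post-spawning ovary 1, 25.1 and 46.0 in the others, and 0.0418 to 0.121 in spawning ovaries; it passed without ovary 1 (adjusted p = 0.0165 by edgeR). The group means of these features are thus set by 1 or 2 of the 3 libraries. The remaining features, cluster14310 and cluster14634, were present in spawning ovaries at 0.850 to 3.14 and 1.07 to 4.58 CPM. They stood at 10.5 to 27.7 and 15.8 to 44.5 CPM after spawning, with log2 fold changes of 3.30 (SE 0.64) and 3.42 (SE 0.68), both with an edgeR adjusted p of 0.556.

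On the lower side, cluster27313 was nearly absent from all 3 post-spawning ovaries. Spawning ovaries held 47.5, 13.5 and 81.8 CPM of it, and post-spawning ovaries held 0.274, 0.0215 and 0.161 CPM, which are 4, 1 and 5 counts. The pooled level was 503 times higher during spawning (exact 95% counting interval 273 to 1050). The log2 fold change was -8.48 (SE 1.16, edgeR adjusted p = 0.185 in the 9 ovaries and 0.0608 without post-spawning ovary 1). Pre-spawning ovaries at 20.1 to 120 CPM were as high as the spawning ones.

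The single transcript cluster52370 showed the same order. Its level was 10.001, 18.1 and 29.0 CPM in spawning ovaries, 0.342, 0.840 and 0.869 CPM in post-spawning ovaries, and 12.9 to 32.6 CPM before spawning. Groups did not overlap, and the log2 fold change was -4.61 (SE 0.67, edgeR adjusted p = 0.270). No testis held more than 0.0658 CPM. For cluster52537 the levels were 9.27 to 36.0 CPM in spawning ovaries and 0.137 to 0.708 CPM after spawning (log2 fold change -5.56, SE 0.92, adjusted p = 0.530 by edgeR). Post-spawning levels of cluster29648 and cluster5367 were even, at 0.883 to 0.997 and 0.172 to 0.354 CPM. Their spawning levels were not, at 4.75 to 36.7 and 1.57 to 22.97 CPM.

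Smaller and steadier differences were seen in cluster46334, cluster34093 and cluster2230. For cluster46334 the spawning ovaries held 74.7, 51.2 and 65.4 CPM and the post-spawning ovaries 9.11, 12.7 and 14.9 CPM (log2 fold change -2.22 ± 0.47 SE, adjusted p = 0.556 by edgeR). cluster34093 belongs to the same transcript stem and stood at 37.0 to 53.9 CPM during and 6.78 to 10.5 CPM after spawning. Together with cluster13070, the third feature of the stem, they summed to 485, 326 and 494 CPM in spawning ovaries and 64.5, 105 and 111 CPM in post-spawning ovaries. All 3 features of the stem were thus lower in every post-spawning library, and the log2 fold change of their sum was -2.20, or -1.98 without post-spawning ovary 1. For cluster2230 the levels were 10.7 to 19.5 CPM during and 2.35 to 3.97 CPM after spawning (log2 fold change -1.93 ± 0.40 SE, adjusted p = 0.556 by edgeR).

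**Figure D2:**
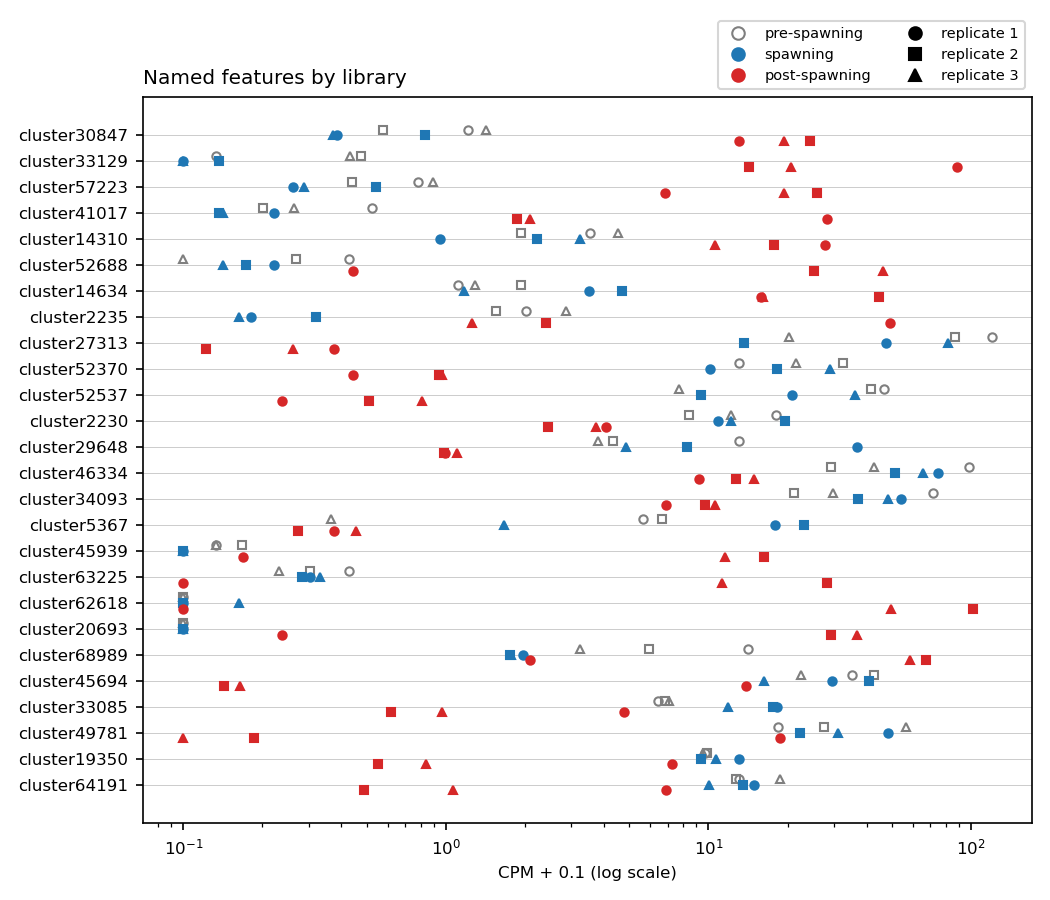
Level of 26 named features in each ovary library, as CPM + 0.1 on a log axis, with colour for stage and marker shape for replicate. The upper 16 were chosen from all libraries and keep red points on 1 side of blue. The lower 10 were chosen without post-spawning ovary 1 and leave out any feature of the upper 16, where that library had to lie on the post-spawning side. In these 10 the red circle of that library lies near the blue spawning points, which the leaving out favours.

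In the features called without post-spawning ovary 1, that library took no part in the test. It was left out because it stood apart from post-spawning ovaries 2 and 3, which favours a position away from them. The counts that follow therefore describe the libraries and test nothing. Of the 29 higher features, it lay nearer the spawning mean in 25 and nearer the mean of post-spawning ovaries 2 and 3 in 4, on the log2(CPM + 0.1) scale. The 25 include the 9 that passed the low-count filter only without post-spawning ovary 1. Of the 12 lower ones it lay nearer the spawning mean in 11 and nearer the post-spawning mean in 1. It was past the spawning range toward the other post-spawning ovaries in 12 of 29 and 9 of 12, inside that range in 10 and 0, and beyond it the other way in 7 and 3. The features were chosen on the values of the spawning ovaries and of post-spawning ovaries 2 and 3. A library that took no part in that test may therefore lie outside the spawning range in either direction. It may also fall short of the mean of post-spawning ovaries 2 and 3. Pre-spawning ovaries were also nearer spawning in 24 of 29 and 11 of 12, and their mean lay between the 2 group means in 24 and 6. Single transcripts made up 24 of the 29 and 8 of the 12, against 49.8% of the features tested.

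The first 5 higher features outside the lists above were nearly silent in spawning ovaries or low there. Of these, cluster62618, cluster20693, cluster45939 and cluster63225 passed the low-count filter only without post-spawning ovary 1. cluster62618 had 0, 0 and 3 counts in spawning ovaries and 101.6 and 49.4 CPM in post-spawning ovaries 2 and 3, but 0 counts in post-spawning ovary 1 and in all 3 pre-spawning ovaries. Its pooled ratio was 2683 (exact 95% counting interval 918 to 13014, edgeR adjusted p = 0.0165). No count of cluster20693 was found in the 3 spawning or the 3 pre-spawning ovaries, against 29.2 and 36.6 CPM in post-spawning ovaries 2 and 3 and 0.137 CPM (2 counts) in ovary 1. Against a floor of 3 counts over the spawning group this was at least 1070-fold higher (edgeR adjusted p = 0.0169). Neither feature exceeded 0.752 CPM in any testis, so neither is shared with that gonad at these levels.

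For cluster45939 the spawning ovaries again held no count, and post-spawning ovaries held 0.0685, 16.2 and 11.5 CPM, at least 476-fold higher without ovary 1 (edgeR adjusted p = 0.0165). cluster63225 stood at 0.183 to 0.230 CPM in spawning ovaries, 28.2 and 11.2 CPM in post-spawning ovaries 2 and 3, and 0 counts in ovary 1 (log2 fold change 6.83 ± 0.68 SE, adjusted p = 0.0165 by edgeR). For cluster68989 the values were 1.65 to 1.86 CPM during spawning and 1.99, 67.5 and 58.3 CPM after it (log2 fold change 5.42 ± 0.60 SE, adjusted p = 0.0169 by edgeR). Its 7-feature stem summed to 29.5, 26.9 and 26.0 CPM in spawning ovaries and 16.6, 354 and 336 CPM in post-spawning ovaries. The whole stem thus separated ovaries 2 and 3 from ovary 1. It was abundant in some testes, where cluster68989 ranged from 0.475 to 1475 CPM. With the replicate block the edgeR adjusted p of cluster62618 and of cluster20693 became 0.0510, and the other 3 stayed under 0.05.

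On the lower side cluster45694 had the smallest p of all. Spawning ovaries held 29.5, 40.7 and 16.1 CPM of it, post-spawning ovary 1 held 13.8 CPM, and post-spawning ovaries 2 and 3 held 0.0431 and 0.0643 CPM, 2 counts each. The log2 fold change was -8.74 without post-spawning ovary 1 (SE 0.67, edgeR adjusted p = 0.00732) and -2.56 with it (SE 1.46, edgeR adjusted p = 0.767). The same shape, with ovary 1 somewhat under the spawning range and ovaries 2 and 3 far under it, was found in the other 4. Those were cluster33085 (11.8 to 18.2 CPM during spawning, 4.66, 0.517 and 0.869 after), cluster49781 (22.2 to 48.2, then 18.7, 0.0862 and 0), cluster19350 (9.23 to 13.0, then 7.19, 0.452 and 0.740) and cluster64191 (9.94 to 14.8, then 6.78, 0.388 and 0.965). Their edgeR adjusted p without ovary 1 were 0.0165 to 0.0209. With the replicate block those of cluster19350 and cluster64191 became 0.0550 and 0.0505. cluster64191 belongs to a stem spread over 218 features, and the sum of those that the stem leads had a log2 fold change of -0.02.

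These calls rest on few libraries. Leaving out post-spawning ovary 2 or 3 as well, with the single library left assumed to vary like the other groups, gave 0 calls by edgeR (2624 and 5980 features at an unadjusted p under 0.05). Leaving out spawning ovary 1 or 3 as well left 0 higher and 1 lower, and leaving out spawning ovary 2 gave 40 higher and 60 lower. DESeq2 without post-spawning ovary 1 called 852 higher (1.9%) and 1091 lower (2.44%), together 4.34%.

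Of the features described or called above, 4 belong to the transcript stem of cluster27313. The stem of cluster33129 also recurs, in cluster41747, cluster42762 and cluster43578, with calls in both directions. The stem of cluster27313 covers 19 transcripts in 17 features, among them cluster52537, cluster21852 and cluster49781. cluster27313 and cluster52537 were near 0 in all 3 post-spawning ovaries. The others, cluster21852 and cluster49781, kept 13.4 and 18.7 CPM in post-spawning ovary 1 and were at 0 to 0.0862 CPM in ovaries 2 and 3. In spawning ovaries 1 to 3 cluster21852 stood at 49.8, 18.5 and 34.2 CPM. A further member at a low level, cluster48157, stood at 2.35, 0.953 and 0.460 CPM in spawning ovaries and had no count after spawning. Summed over the features that the stem leads, the level was 2193, 4424 and 2583 CPM in spawning ovaries and 1524, 3292 and 2790 CPM in post-spawning ovaries. These overlap, and the log2 fold change of the sum was -0.03, or 0.28 without post-spawning ovary 1. The leading member cluster52754 held 328, 1117 and 860 CPM during and 160, 909 and 862 CPM after spawning. Whether the 4 features are alleles, copies or splice forms of one gene was not tested, and reads that match several of them could have been divided between them in counting.

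**Figure D3:**
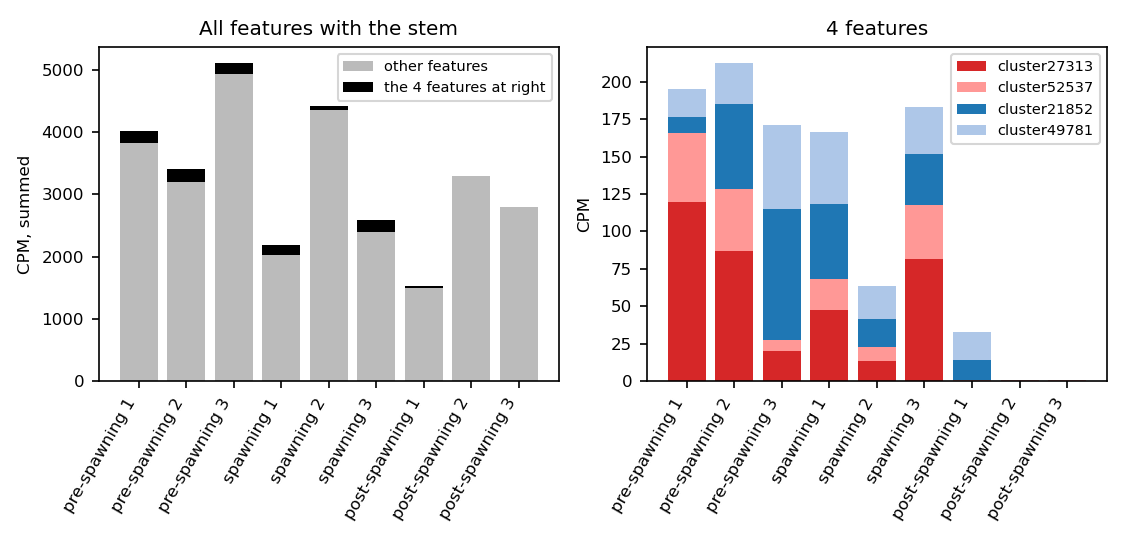
CPM summed over the features led by the stem of cluster27313 in each ovary library (left, with 4 features in black) and the CPM of those 4 features (right). The sum overlaps between stages, whereas cluster27313 and cluster52537 are near 0 in all post-spawning libraries and cluster21852 and cluster49781 in post-spawning ovaries 2 and 3.

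To place the comparison in the gonad, features were grouped from the pre-spawning gonads alone, which neither compared group contributes to. Ovary-biased features had at least 1 CPM in pre-spawning ovaries and at least 16 times the level of pre-spawning testes, and 2018 features met this. Testis-biased features were defined the other way round, and 3328 met it. The low-count filter passed 1943 and 1343 of them, and the counts below use all members without that filter.

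The summed share of ovary-biased features was larger in post-spawning ovaries 2 and 3 than in any spawning ovary, and smallest in post-spawning ovary 1. Their median level did not separate the groups in this way. It was 8.18, 14.7 and 8.42 CPM in spawning ovaries 1 to 3 and 5.48, 14.8 and 13.3 CPM in post-spawning ovaries 1 to 3. Without the 10 most abundant of these features, spawning ovary 2 held 20.2%, and post-spawning ovaries 2 and 3 held 24.0% and 21.0%. All ovary-biased features together took 15.7%, 24.2% and 16.8% of counts in spawning ovaries 1 to 3, and 13.3%, 31.3% and 26.1% in post-spawning ovaries 1 to 3. The means of 18.9% ± 4.65 and 23.6% ± 9.25 (SD, n = 3 each) did not differ beyond the spread (two-sided exact permutation test, p = 0.6, adjusted p = 0.7 over 5 library measures). Within seasons the post-spawning library was lower in season 1 and higher in seasons 2 and 3. Pre-spawning ovaries 1 to 3, whose levels helped define the group, held 24.9%, 31.5% and 28.2%. Post-spawning ovaries 2 and 3 lay inside that range. In 72 of the 2018 features all post-spawning libraries were above all spawning ones (3.57%), and in 95 below (4.71%). Both shares were near those of the 35972 features present in pre-spawning gonads and biased to neither, at 3.01% and 4.87%. Over all 135031 features, most of them at 0 in each ovary library, the shares were 1.7% and 2.4%. Without post-spawning ovary 1 the counts became 546 above (27.1%, against 11.1% of the unbiased and 6.56% of all features) and 157 below (7.78%, against 18.6% and 7.14%).

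Several of the most abundant ovary-biased features showed the order of the summed share one by one. cluster55, a cluster of 55 transcripts, stood at 4747, 5936 and 6498 CPM in spawning ovaries and at 3564, 17949 and 9871 CPM in post-spawning ovaries. Post-spawning ovary 1 was below and ovaries 2 and 3 above every spawning library. The single transcript cluster57203 stood at 2482, 4200 and 3397 CPM during and 1938, 8215 and 5742 CPM after spawning, again with ovary 1 lowest and ovaries 2 and 3 highest. For cluster70400 the spawning values of 4513, 7910 and 4860 CPM also lay between those of post-spawning ovary 1 (3882) and ovaries 2 and 3 (10729 and 8558). Among the 100 most abundant ovary-biased features, ovaries 2 and 3 were both above all spawning ovaries in 36 and both below in 0, while ovary 1 was below all spawning ovaries in 58 and above in 8. Among all 42501 tested features, ovaries 2 and 3 were both above in 13.2% and both below in 18.1%, and ovary 1 was below in 32.3% and above in 26.2%. The 100 features share libraries and are no separate tests. A ranking by level in the compared libraries favours features high in some of them, and the tested features are of any abundance. The counts therefore describe these libraries and test nothing.

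Testis-biased features took a small share of ovary counts that was higher in every post-spawning library. The share was 0.363%, 0.264% and 0.445% in spawning ovaries and 1.65%, 0.876% and 0.735% in post-spawning ovaries. The groups did not overlap, with means of 0.357% ± 0.0904 and 1.09% ± 0.494 (SD, n = 3 each). The two-sided exact permutation p was 0.1, the smallest that 3 libraries against 3 can give (adjusted p = 0.5 over 5 library measures). Because the groups did not overlap, the share was necessarily also higher in the post-spawning library of each of the 3 seasons. Of the 3328 features, 272 were higher in all post-spawning than in all spawning libraries (8.17%, against 3.01% of the unbiased and 1.7% of all features) and 106 were lower (3.19%, against 4.87% and 2.4%). Without post-spawning ovary 1 these became 485 higher (14.6%, against 11.1% and 6.56%) and 397 lower (11.9%, against 18.6% and 7.14%). The median log2 fold change of the tested members was 0.65 with that library and -0.18 without it, against 0.04 and -0.08 over all features tested. These medians are over the 1343 and 1521 members that passed the low-count filter in each fit. A member can pass it through the libraries being compared, so the medians are descriptions only.

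Different testis-biased features made up this share in different libraries. A list was drawn for each post-spawning ovary of the features with at least 10 CPM and at least 10 times the highest spawning ovary. It held 244 features in ovary 1, 139 in ovary 2 and 118 in ovary 3. These were 1.77%, 1.16% and 0.824% of the features with at least 10 CPM in that library. Ovaries 2 and 3 had 107 listed features in common, 76.98% and 90.7% of their lists. Ovary 1 had 4 in common with ovary 2 and 3 with ovary 3. Testis-biased features numbered 81, 73 and 68 in the 3 lists, of 213, 115 and 109 with at least 10 CPM in those libraries. Of the listed ones, ovaries 2 and 3 had 65 in common, and ovary 1 had 3 in common with each. The group was chosen for levels in pre-spawning ovaries far under those of testes, which favours its entry into such lists. The lists use the compared values, so these counts describe the libraries and test nothing.

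Most of the 65 features common to ovaries 2 and 3 varied among testes. A testis-biased feature was called variable when libraries of a single testis stage differed at least 100-fold, a rule added after the values were seen that uses no ovary, and 313 of 3328 features met it (9.41%). Among the 65, 59 were variable, and among the 81 of ovary 1, 7 were. All 3328 had a median of 1.83 CPM in testes, and features at a low level can hardly differ 100-fold. The 9.41% is therefore not a share at like abundance. The median level of the 65 was 981 CPM in pre-spawning testis 3 and 957 CPM in spawning testis 1, and 0.213 to 0.418 CPM in spawning testis 3 and in post-spawning testes 2 and 3. In ovaries it was 61.5 and 45.3 CPM in post-spawning ovaries 2 and 3, 1.23 CPM in post-spawning ovary 1, 6.89 CPM in pre-spawning ovary 1, and 0.0988 to 0.283 CPM in the other 5. The 81 features of ovary 1 had a median of 19.2 CPM there, 0.243 to 1.14 CPM in the other ovaries and 5.63 to 56.6 CPM in every testis. They were thus present in all testes, whereas the 65 were nearly absent from 3 of 9.

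Split by this rule, the 313 variable features took 0.0103% to 0.0138% of counts in spawning ovaries and 0.0588%, 0.604% and 0.469% in post-spawning ovaries. They took 0.281% to 12.5% in testes, and 0.0917%, 0.0157% and 0.0107% in pre-spawning ovaries 1 to 3. Pre-spawning ovary 1 thus lay above post-spawning ovary 1 in this share. The other 3015 took 0.350%, 0.250% and 0.434% in spawning ovaries and 1.59%, 0.272% and 0.266% in post-spawning ovaries. Variable features were therefore higher in every post-spawning than in every spawning library, mainly in ovaries 2 and 3 (exact permutation p = 0.1, n = 3 each). The others were high in ovary 1 alone among the 6 (exact permutation p = 0.8, n = 3 each). Because the split was made after the values of these libraries were seen, both p-values are descriptions only. Whether testis tissue, testis RNA or reads of testis libraries entered any ovary library was not tested.

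**Figure D4:**
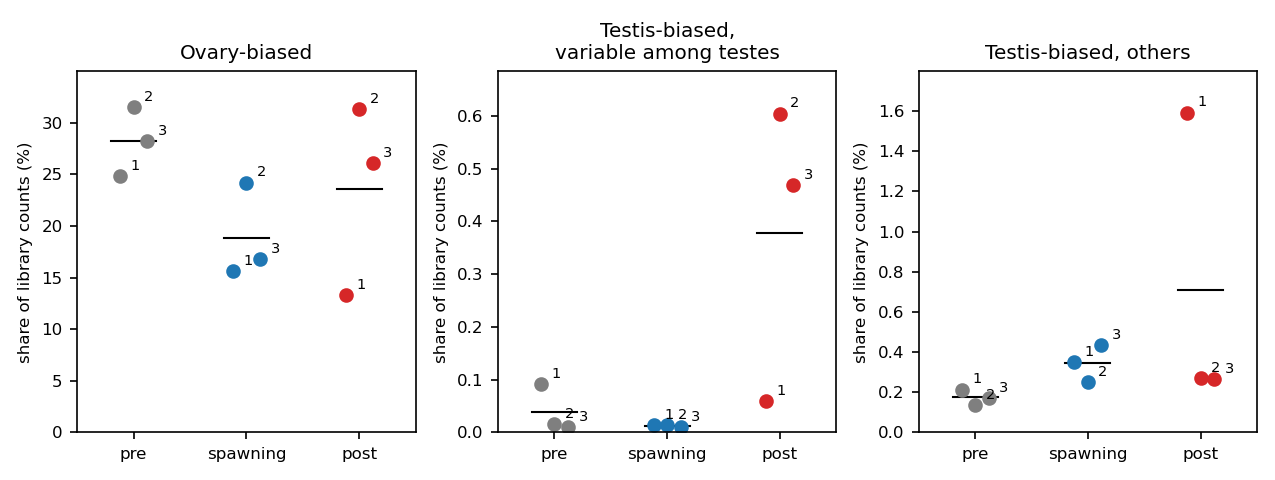
Share of each ovary library's counts in ovary-biased features, in testis-biased features that vary among testes, and in other testis-biased features, with points labelled by replicate and lines at group means. Post-spawning ovaries 2 and 3 are high in the first panels, and post-spawning ovary 1 stands alone at 1.59% in the last.

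Single features show both patterns. cluster40324 stood at 0.972, 0.733 and 1.05 CPM in spawning ovaries, 4.11 CPM in post-spawning ovary 1, and 505 and 283 CPM in post-spawning ovaries 2 and 3. It was at 51.1 CPM in pre-spawning ovary 1 and 1.02 and 0.988 CPM in the other pre-spawning ovaries, and ranged from 2.30 to 8468 CPM in testes. cluster2035, a cluster of 12 transcripts, reached 497 and 547 CPM in ovaries 2 and 3 against 23.8 CPM in ovary 1 and 1.25 to 12.03 CPM in spawning ovaries. Pre-spawning ovary 1 held 115 CPM of it, and pre-spawning ovaries 2 and 3 held 1.42 and 5.43 CPM. The opposite order was found in cluster19015, at 1478 CPM in post-spawning ovary 1 against 87.7 and 60.4 CPM in ovaries 2 and 3 and 30.9 to 47.1 CPM in spawning ovaries. cluster26422 stood at 778 CPM in ovary 1, 24.9 and 8.65 CPM in ovaries 2 and 3, and 2.43 to 5.53 CPM in spawning ovaries. All of these were picked as the testis-biased features with the largest excess in those libraries, and their edgeR adjusted p in the 9 ovaries was 0.583 to 0.613.

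**Figure D5:**
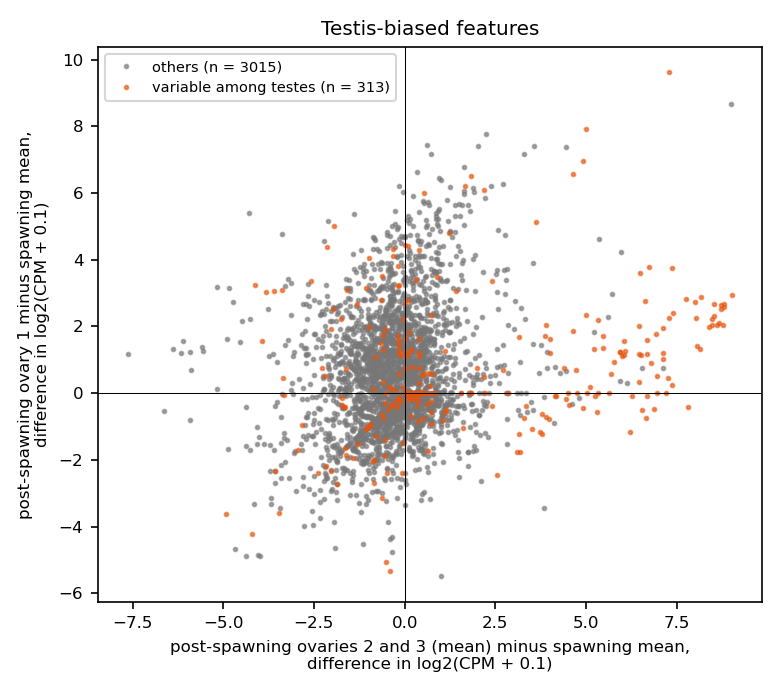
Difference from the spawning mean, in log2(CPM + 0.1), of each of the 3328 testis-biased features in post-spawning ovaries 2 and 3 (horizontal) and in post-spawning ovary 1 (vertical), with features variable among testes in orange. Features high in ovaries 2 and 3 are mostly orange and lie well under the diagonal, and features high in ovary 1 are mostly grey and lie near 0 on the horizontal axis.

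Only cluster30847, cluster33129 and cluster73453 were in the lists of all 3 post-spawning ovaries, and all 3 were testis-biased. The last, named after its values were seen, stood at 0.0405, 0.0366 and 0 CPM in spawning ovaries (2 counts in all) and at 51.3, 73.9 and 53.5 CPM in post-spawning ovaries. It was even across the post-spawning libraries but also stood at 43.7 CPM in pre-spawning ovary 1, and it was the 1 feature called when the 6 compared libraries were fitted alone (edgeR adjusted p = 0.0156, against 0.556 in the 9 ovaries).

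In the opposite direction, lists were drawn from the 11387 features with at least 10 CPM in every spawning ovary. Those with at least 10 times the level of the post-spawning library numbered 11, 27 and 17 in post-spawning ovaries 1 to 3 (0.0966%, 0.237% and 0.149%). Of these, 5 were in all 3 lists. Besides cluster27313 and cluster52370 these were cluster37273, cluster50016 and cluster66058, named after their values were seen. cluster37273 stood at 11.9, 11.9 and 23.1 CPM in spawning ovaries and at 0 counts in all 3 post-spawning ovaries, at least 531-fold lower against a floor of 3 counts over the group. Pre-spawning ovary 3 held 13.2 CPM of it, and pre-spawning ovaries 1 and 2 held no count. cluster50016 and cluster66058 had the same distribution, with 12.9 to 20.9 and 11.8 to 20.9 CPM during spawning and 0 counts after it. cluster66058 shares its transcript stem with cluster37273, and cluster50016 belongs to the stem of cluster33129. Testes ranged from 0 to 638 CPM for cluster37273, to 645 CPM for cluster50016 and to 778 CPM for cluster66058. All 3 differed as much among pre-spawning ovaries as between the compared groups, and their edgeR adjusted p was 0.613 in the 9 ovaries.

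The most abundant features of these ovaries differed widely between libraries of a stage, and none passed the test in the 9 ovaries. cluster61036, a single transcript, took 3.30%, 0.472% and 4.41% of counts in spawning ovaries and 1.88%, 0.244% and 0.400% in post-spawning ovaries. It was high in spawning ovaries 1 and 3 and post-spawning ovary 1, and low in the rest, so the groups overlapped (log2 fold change -1.69 ± 0.96 SE, adjusted p = 0.766 by edgeR). cluster32980, cluster73334 and cluster69527 followed the same order, with spawning means of 2.32%, 1.48% and 1.503% and post-spawning means of 0.671%, 0.365% and 0.234%. Each of the 4 was lower in the post-spawning library of every season, although the replicate block gave no call (edgeR adjusted p 0.707 to 0.875, unadjusted 0.00278 to 0.0439). Without post-spawning ovary 1 the groups of the 4 no longer overlapped and the log2 fold changes were -2.99 (cluster61036), -3.18 (cluster32980), -3.76 (cluster73334) and -3.80 (cluster69527). Then edgeR still called none (adjusted p 0.208 to 0.238), whereas DESeq2 called all 4 (adjusted p 0.00116 to 0.00878). cluster0, which gathers 230 transcripts, took 1.09% ± 0.963 and 0.827% ± 0.498 (SD, n = 3 each, edgeR adjusted p = 0.975).

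Some features were abundant in some libraries of a stage and near 0 in others. Of 14488 features with a mean of at least 10 CPM over the 6 libraries, 101 differed at least 100-fold among the 3 spawning ovaries, on CPM + 0.1. Among the 3 post-spawning ovaries 177 did, and between post-spawning ovaries 2 and 3 alone 0 did. A range over 3 libraries is at least as large as that of any pair, and other pairs were not counted. cluster29737 stood at 114, 0.366 and 1001 CPM in spawning ovaries and at 1829, 0.302 and 0.193 CPM in post-spawning ovaries. cluster33417 stood at 361, 0 and 798 CPM and then at 1332, 1.55 and 0.418 CPM, and cluster45417 at 346, 0 and 665 CPM and then at 1168, 0.970 and 0.193 CPM. In all 3, spawning ovaries 1 and 3 and post-spawning ovary 1 were high and the other 3 were low. cluster17802 was high in spawning ovary 3 (761 CPM) and post-spawning ovary 1 (1380 CPM) and at 7.65 to 18.3 CPM in the rest. cluster63251 was at 5750 CPM in post-spawning ovary 1 against 1.077 and 18.7 CPM in ovaries 2 and 3 and 21.1 to 290 CPM in spawning ovaries. The fitted log2 fold changes of these 5 were 0.13 to 3.93 with post-spawning ovary 1 and -3.69 to -10.45 without it, and none passed in either fit (edgeR adjusted p 0.755 to 0.996 and 0.248 to 0.279).

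Over the 9 ovaries, the features whose levels most resembled cluster30847 among 14412 with a mean of at least 10 CPM were cluster33129 (Pearson r = 0.931 on log2(CPM + 0.1)), cluster61153 (0.929) and cluster16378 (0.924). cluster61153 differed little, at 578 to 636 CPM during spawning and 742, 782 and 814 CPM after it (log2 fold change 0.55 ± 0.31 SE, adjusted p = 0.767 by edgeR). It was evenly higher in all 3 post-spawning libraries, with pre-spawning ovaries at 613 to 649 CPM. cluster16378 stood at 6.76, 11.03 and 8.20 CPM during and 27.0, 22.9 and 17.1 CPM after spawning, a difference that DESeq2 called (adjusted p = 0.0254) and edgeR did not (0.583). For cluster27313 the nearest were cluster52537 (0.973), cluster52370 (0.926) and cluster6426 (0.921). cluster6426 stood at 121, 118 and 106 CPM during spawning and 50.5, 9.39 and 11.8 CPM after it (log2 fold change -2.16 ± 0.61 SE, adjusted p = 0.613 by edgeR, and 0.0508 without post-spawning ovary 1). These likenesses are over 9 libraries of shared depth and composition and are descriptions.

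The range of features detected was slightly narrower after spawning, within the spread of the libraries. With every library thinned to 14604277 counts, spawning ovaries had 57532, 55980 and 54614 features with at least 1 count and post-spawning ovaries 55327, 53700 and 53576 (exact permutation p = 0.2, n = 3 each, adjusted p = 0.5 over 5 measures). The 100 most abundant features took 23.5%, 15.6% and 26.9% of counts in spawning and 19.5%, 22.9% and 16.5% in post-spawning ovaries (exact permutation p = 0.6, n = 3 each, adjusted p = 0.7). Features of 5 or more transcripts took 20.4% ± 1.26 and 21.1% ± 2.46 (SD, n = 3 each, exact permutation p = 0.7, adjusted p = 0.7).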

How the data were processed

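Ovary RNA was extracted with Trizol, depleted of ribosomal RNA with a kit for human, mouse and rat RNA, and made into Illumina libraries, per the labels' protocols. The authors deposited counts, all whole numbers, for each feature and library, and a map of transcripts to features. Reads were handled with fastp and Salmon, per the submitters' processing notes. Versions, the transcriptome, the clustering and the rounding were not given in the sources used here. Salmon estimates counts, so the deposited counts may be rounded estimates, and reads of similar transcripts may be divided between features. Of 168164 stems, 18.9% had transcripts in several features. No gene names or sequences were used here.

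In R 4.3.3 with edgeR 4.0.16, the 9 ovary libraries were scaled by TMM, filtered with filterByExpr and fitted with 3 group means (glmQLFit, robust=FALSE, and glmQLFTest). P-values were adjusted by Benjamini and Hochberg across every feature in the fit, and those under 0.05 were called. CPM used library totals. The scripts were tested on simulated data. DESeq2 1.42.0 and limma 3.58.1 were alternatives, and values of single libraries were compared by exact permutation in SciPy 1.17.1 (two-sided), which cannot go below 0.1 with 3 against 3. Intervals and floors cover counting error only.

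Features named had a mean of 10 CPM or more in the higher group, a log2 fold change of 1 or more either way and libraries of the groups apart, by p: 8 per direction from all ovaries and, with an adjusted p under 0.05, up to 5 per direction without post-spawning ovary 1. The 5 most abundant features, the 5 most abundant with a 100-fold range in a group and 3 most like each leading feature were added. The comparison, the lists and the groups were chosen with earlier results of these data known. The labels give the season as batch, equal to the replicate number, so the replicate block pairs the libraries by season. As a check, deviations from the group means correlated between same-season libraries at 0.105, 0.159 and -0.320 in seasons 1 to 3 (Pearson, 42501 features). Between libraries of different seasons the values ranged from -0.323 to 0.366, so same-season libraries were no more alike than others.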

Additional observations from a re-analysis of the deposited data

How the results depend on the processing

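All 9 ovaries gave 0 calls with edgeR under RLE scaling, robust fitting, stem sums, all 18 libraries, the replicate block (the paired fit by season) and each left-out library except post-spawning ovary 1 (range 0 to 29 higher and 0 to 12 lower). Calls appeared without the low-count filter (1097 higher, 664 lower), with DESeq2 (302 and 138), with the newer quasi-likelihood method (3 and 1) and with the 6 compared libraries alone (1 and 0). Without post-spawning ovary 1, the 29 and 12 became 40 and 4 with the replicate block, 230 and 39 with only the 5 libraries compared, 852 and 1091 with DESeq2, and 20 and 7 with stem sums, the last chosen after seeing the data. Leaving out a second library, also chosen then, gave 0 to 40 higher and 0 to 60 lower.

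Direction turned in few values. The share of the 100 leading features ranged from -5.59 to 0.0824 percentage points over left-out libraries (post-spawning minus spawning), and the share of features of 5 or more transcripts from -0.517 to 1.94. For testis-biased features the share difference of 0.730 became 0.365 without those variable among testes, and -0.0760 when post-spawning ovary 1 was left out too. Among members that passed the filter of each fit, their median log2 fold change ranged from -0.18 to 0.96 over left-out libraries. That of features shared by the pre-spawning gonads (at least 1 CPM in either, without a 16-fold ratio) ranged from -0.11 to 0.056. Stem sums without post-spawning ovary 1 turned cluster33129 to -0.34 and cluster27313, cluster52537 and cluster49781 to 0.28. cluster0 ranged from -0.86 to 0.56 over left-out libraries, and was 0.19 with the block without post-spawning ovary 1. The causes were not tested.

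The 5 features with a 100-fold range in a group turned to lower after spawning. Over left-out libraries cluster63251 ranged from -3.69 to 5.13, cluster29737 from -10.45 to 3.53, cluster33417 from -8.40 to 1.41, cluster17802 from -5.01 to 5.08 and cluster45417 from -8.93 to 1.29, in that order below. With limma voom weights they were -3.16, -6.53, -4.79, -1.37 and -5.64. The replicate block gave the last 4 -2.53, -3.29, -0.12 and -3.28, and cluster33417 was -0.0040 without the low-count filter. Leaving out post-spawning ovary 1, they were -2.45, -12.22, -9.91, -3.22 and -10.85 with the block, -3.73, -10.46, -8.41, -5.03 and -8.94 with only the 5 libraries compared, -3.71, -10.51, -8.43, -5.05 and -8.97 with DESeq2, -3.71, -10.48, -8.42, -5.05 and -8.95 with RLE scaling, and -3.67, -10.41, -6.71, -4.98 and -6.71 with stem sums. Beyond the calls given in the report, the replicate block changed no other call of a named feature.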
